A study of Mus musculus with 4 samples.

Results

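A set of 10 genes of the S100, annexin and galectin families was followed in virus-specific CD8+ T cells: the S100 genes S100a4, S100a6, S100a10, S100a11 and S100a13, the annexin genes Anxa1, Anxa2, Anxa5 and Anxa6, and the galectin gene Lgals1. They were taken by symbol from the 27998 genes of the count tables, each of the 10 symbols matched 1 gene, and all 10 passed the filter on low counts in every fit given here. The cells came from 2 mixed bone marrow chimeras on a C57BL/6 background, in which Rag1-/- mice were irradiated with a sublethal dose and given WT (CD45.1) and Bcl3-/- (CD45.2) marrow in equal parts. The chimeras were infected with LCMV Armstrong, a lymphocytic choriomeningitis virus strain that causes an acute infection, and on day 8 splenic CD8+ cells that bound the H-2Db-GP33 tetramer were sorted by CD45 allele. The groups are therefore WT (n = 2 libraries, WT1 and WT2) and Bcl3-/- (n = 2 libraries, KO1 and KO2). Chimera 1 gave WT1 and KO1, and the other chimera WT2 and KO2. The deletion was not restricted to T cells, and all KO cells carry CD45.2 and all WT cells CD45.1, so that an effect of the deletion and one of the congenic donor strain cannot be told apart.

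UMIs, which count single captured molecules from the 3′ end of transcripts, were summed over barcodes that passed limits on genes (500 or more) and on mitochondrial UMIs (10% or less), and levels are given in CPM, the count of a gene scaled to the summed UMIs of the cells. The cells numbered 4941 (WT1), 8092 (WT2), 5366 (KO1) and 6494 (KO2), with medians of 3571, 2019, 3620.5 and 2948 UMIs per cell, so that WT2 was the shallowest per cell. Clusters were found within each library with all S100, annexin and galectin genes left out of the genes that were clustered on, and were named from marker lists. The T cell clusters held 93.7, 95.4, 92.2 and 93.2% of the cells of WT1, WT2, KO1 and KO2. They fell into terminal effector-like, cycling-like, interferon-stimulated-like and memory precursor or naive-like clusters, and clusters that no list named, called no-list clusters here, which held 2798, 4613, 2802 and 3649 cells.

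The labelled cell type was checked on its markers. In the T cell clusters the 5 CD8 and CD3 genes of the list were all detected and summed to 5981, 5778, 6349.8 and 6475 CPM in WT1, WT2, KO1 and KO2, with Cd8b1 as the most abundant. Cd4 was at 2.70, 2.91, 2.62 and 1.80 CPM in the same order, and the 8 B cell genes with UMIs summed to 353, 342, 348 and 279.7 CPM. The 14 myeloid genes summed to 813, 710.1, 683 and 590.0 CPM in the T cell clusters (led by Cst3 and lower in both KO libraries), the 6 erythroid genes to 65.1, 32.9, 1.56 and 193 CPM and the 5 NK cell genes to 63.6, 76.6, 83.5 and 63.7 CPM, and no gene of these lists was at 0 over the libraries. Without T cells that held 3 or more UMIs of the B cell, myeloid and erythroid genes, the genotype difference over the T cell clusters was 0.83 for S100a4, 0.39 for Anxa1, -0.41 for Anxa2 and -0.33 for Anxa5 on the log2 scale (values with all T cells are given with each gene). Of all cells this left 29.9% (WT1), 60.4% (WT2), 28.8% (KO1) and 48.2% (KO2), with lower median UMIs than all T cells in each. Fewer cells of a type and less RNA per cell cannot be told apart in such sums. Bcl3 itself was at 33.2 (WT1), 108 (WT2), 27.6 (KO1) and 86.6 (KO2) over all cells, which followed the chimera more closely than the genotype. The deleted part of the gene is not given in the sources used here, and 3′ counts from outside it do not check the label.

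S100 proteins are small calcium sensors that change shape when calcium binds and then dock onto target proteins. Annexins bind negatively charged membrane lipids in a calcium-dependent way, and some S100 proteins pair with annexins, S100A10 with annexin A2 and S100A11 with annexin A1. Galectin-1, the product of Lgals1, binds galactose-containing glycans on cell surface proteins, among them CD45, CD43 and CD7 on T cells. In CD8+ T cells many of these genes are known to be low in naive cells and to be switched on with activation, together with genes of migration, membrane repair and the actin cytoskeleton.

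The 5 S100 members lie on chromosome 3 (GRCm38, GENCODE vM21 annotation), in a cluster of S100 genes. S100a13 spans chr3:90514435-90524581, S100a4 chr3:90603771-90606045 and S100a6 chr3:90612882-90624181, all on the plus strand and with 6837 bases between S100a4 and S100a6. S100a11 (chr3:93520488-93526287) and S100a10 (chr3:93555080-93564643) form a separate pair further along the chromosome, with 28793 bases between them. Anxa1 lies at chr19:20373428-20390944 and Anxa5 at chr3:36448923-36475894, both on the minus strand. Anxa2 lies at chr9:69453620-69491795, Anxa6 at chr11:54979108-55033445 on the minus strand and Lgals1 at chr15:78926725-78930465. All 10 are protein-coding. Of the last 300 bases of the longest S100a4 transcript, which 3′ counting reads, 36.3% of 50-base stretches are shared with the overlapping gene Gm42674, which had 0 UMIs in the T cell clusters of all 4 libraries. For S100a11 21.1% are shared with the processed pseudogenes Gm12854 and Gm29240, so that counts of these genes could lose ambiguous reads.

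Between S100a13 and S100a4 the other genes of the cluster were hardly detected in the T cell clusters. S100a14, S100a16, S100a3 and S100a2 had means of 0.0809, 0.0414, 1.37 and 0.659 CPM, and S100a5, which lies between S100a4 and S100a6, had 0.0682 CPM. S100a13, S100a4 and S100a6 had means of 524, 1109.9 and 4123 CPM.

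Promoter sequences from RefSeq (GRCm38.p6), covering 250 bases before the transcription start, were found for 7 of the 10 members, and not for S100a10, Anxa6 and Lgals1. They are shown for the members whose promoters held a searched motif in the 30 bases from 40 to 11 before the start. Capitals mark TATAAA, the TATA box core, in S100a4, Anxa1 and Anxa2, and TGAGTCA, a match to the AP-1 motif TGANTCA, in S100a11.
S100a4, chr3:90603730-90603759, plus strand: ctggcagggTATAAAtaggtcagattgttg
S100a11, chr3:93520456-93520485, plus strand: ccTGAGTCAggctgaggggcgggacccgga
Anxa1, chr19:20390682-20390711, minus strand: tcatatccTATAAAatcaggagtccaaccc
Anxa2, chr9:69453643-69453672, plus strand: tcgcgctgggaggatggggcgggTATAAAa
TATAAA began 31 bases before the start in S100a4, 32 before it in Anxa1 and 17 before it in Anxa2, each on the strand of the gene. On either strand, 12.4% of the 32851 promoters hold it. TGANTCA, searched on both strands, was found 38 and 136 bases before the start in S100a11 and 95 before it in Anxa2, and 6.75% of all promoters hold it. The kappaB motif, the site of the NF-κB proteins with which Bcl-3 associates, matched none of the 7, and 7.25% of all promoters hold it. Starts are those of RefSeq, and the windows of Anxa1 and Anxa2 lie inside the gene spans of the GENCODE annotation given above, which begin further upstream. The matches describe letters only.

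The first comparison was between the genotypes over all T cell clusters. S100a4 and Anxa1 were higher, and Anxa2 and Anxa5 lower, in both KO libraries than in both WT libraries. The other 6 members overlapped between the genotypes after scaling. In edgeR those 4 differences passed the test with the chimera as a block and not without it, and DESeq2 without a block called S100a4 and Anxa1. Among the S100 members, S100a4, whose product binds non-muscle myosin and is known from motile cells, was at 892 (WT1), 693 (WT2), 1419.8 (KO1) and 1434 (KO2) CPM. Both KO libraries lay above both WT libraries, with almost the same value in the KO libraries and a gap between the WT ones. The log2 fold change was 0.84 ± 0.15 (SE), and the adjusted p was 0.121 (quasi-likelihood test of edgeR, Benjamini-Hochberg over all genes). S100a6, a calcium sensor found in proliferating cells, was at 4360.3 (WT1), 4142 (WT2), 4557 (KO1) and 3431 (KO2) CPM, and the genotypes overlapped, since KO1 was the highest and KO2 the lowest. Its log2 fold change was -0.093 ± 0.18 (SE), within the spread of the replicates.

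S100a10, the partner of annexin A2, was at 2629 (WT1), 2536 (WT2), 2592 (KO1) and 2572 (KO2) CPM and the 4 libraries nearly coincided. Its log2 fold change of -0.0097 ± 0.12 (SE) was far inside its error. S100a11, the partner of annexin A1, was at 934 (WT1), 736 (WT2), 928 (KO1) and 794 (KO2) CPM. Here both libraries of chimera 1 lay above both of chimera 2, whatever the genotype. S100a13, which takes part in export of proteins that lack a signal peptide, was at 507 (WT1), 481 (WT2), 576 (KO1) and 533 (KO2) CPM. The WT and KO values did not overlap before TMM scaling and overlapped after it, and the log2 fold change was 0.16 ± 0.11 (SE) (adjusted p = 0.585, edgeR).

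Of the annexins, Anxa1, which encodes an anti-inflammatory phospholipid-binding protein that also signals through formyl peptide receptors, was at 121 (WT1), 137 (WT2), 186 (KO1) and 181 (KO2) CPM. Both KO libraries were higher, by a log2 fold change of 0.50 ± 0.10 (SE) (adjusted p = 0.145, edgeR). Anxa2, which links membrane to actin, was at 596 (WT1), 566 (WT2), 476 (KO1) and 468 (KO2) CPM. Here the KO libraries were both lower, and the fitted log2 fold change was -0.31 ± 0.11 (SE) (adjusted p = 0.285, edgeR). Anxa5, whose product binds phosphatidylserine, was at 170.0 (WT1), 161 (WT2), 136 (KO1) and 142 (KO2) CPM, again without overlap and with the KO libraries lower (-0.26 ± 0.094 (SE), adjusted p = 0.297, edgeR). Anxa6, a larger annexin that binds membranes and cytoskeleton, was at 703 (WT1), 790.4 (WT2), 648 (KO1) and 765 (KO2) CPM. Chimera 2 was higher than chimera 1 in both genotypes, and the log2 fold change was -0.091 ± 0.11 (SE).

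Lgals1 was at 5489 (WT1), 5001 (WT2), 5596 (KO1) and 5577 (KO2) CPM, so that WT2 stood apart as the lowest. The genotypes did not overlap before TMM scaling, with WT1 close below the KO libraries, and overlapped after it. The log2 fold change of Lgals1 was 0.081 ± 0.14 (SE) (adjusted p = 0.833, edgeR). Without a block for the chimera, edgeR called none of the 10 members over the T cell clusters, where 0.27% of 11103 genes were called, and 4 of the 10 had an unadjusted p under 0.05, as did 13.8% of all genes. On the TMM scale the genotypes did not overlap for 4 of the 10 (S100a4, Anxa1, Anxa2 and Anxa5), close to the 46.7% of all genes. Over all cells edgeR without the block called none of the 10 either, with 0.363% of 11566 genes called, 4 of the 10 under an unadjusted p of 0.05 (beside 15.6% of all genes) and Anxa1 nearest to the threshold (adjusted p = 0.0537). The median log2 fold change of the members in the T cell clusters was 0.013, beside 0.0062 over all genes tested.

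The libraries are paired, since WT and KO cells of a number come from the same animal, and the fit with the chimera as a block called 4 of the 10 members over the T cell clusters, beside 10.8% of all genes (5.31% higher and 5.53% lower in KO). S100a4 (0.85 ± 0.080 (SE), adjusted p = 3.59e-07) and Anxa1 (0.50 ± 0.075 (SE), adjusted p = 0.000128) rose. Anxa2 (-0.31 ± 0.067 (SE), adjusted p = 0.00447) and Anxa5 (-0.26 ± 0.070 (SE), adjusted p = 0.0186) fell, all by edgeR. With so few pairs, these p-values rest largely on variance that edgeR pools across genes. The same 4 were called over all cells, where the block called 9.65% of genes. DESeq2 without a block called S100a4 (adjusted p = 2.13e-05) and Anxa1 (adjusted p = 0.0119) among the 10, beside 1.34% of 12659 genes, and over all cells the same pair (adjusted p = 3.86e-05 and 0.000116) beside 1.53%. Within each chimera the log2 ratio of KO over WT for S100a4 was 0.67 in chimera 1 and 1.05 in chimera 2.

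**Figure D1:**
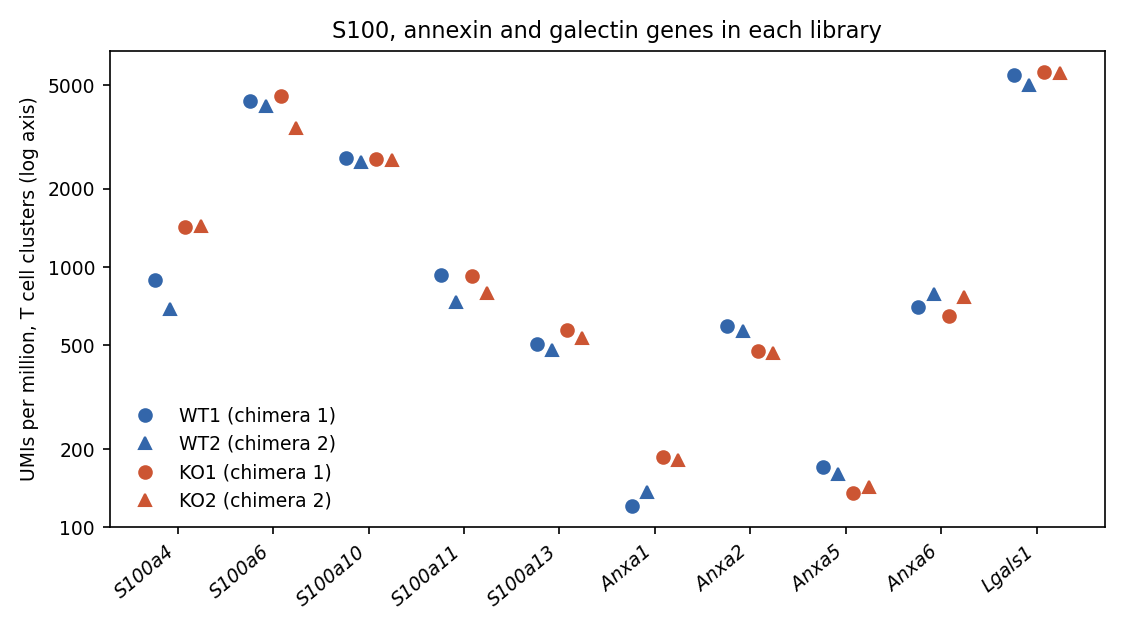
Level of each of the 10 genes in the T cell clusters of every library, in CPM on a log axis, with WT in blue, KO in orange, circles for chimera 1 and triangles for chimera 2. Both KO symbols lie above both WT symbols for S100a4 (892 and 693 against 1419.8 and 1434) and for Anxa1, and below them for Anxa2 and Anxa5. They also lie above them, by less, for S100a13 and Lgals1, where the genotypes overlapped after TMM scaling.

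The genotypes were then compared within each class of T cell clusters, which asks whether a difference is found inside a state. S100a4 was higher in both KO libraries in all 5 classes. In the no-list clusters it was at 1014, 756, 1532 and 1554 CPM in WT1, WT2, KO1 and KO2, and in the terminal effector-like clusters at 673, 573, 1212 and 1079 CPM. The cycling-like clusters held 832, 686, 1402 and 1496 CPM and the interferon-stimulated-like clusters 672, 552, 1395 and 1374 CPM. In the memory precursor or naive-like clusters the values were 483, 485, 690.1 and 792 CPM, the lowest class of every library. KO and WT did not overlap in any class, as for 43.8% of genes in the no-list clusters, 42.7% in the terminal effector-like, 40.4% in the cycling-like, 39.5% in the interferon-stimulated-like and 38.3% in the memory precursor or naive-like ones.

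Without the block the difference passed in the terminal effector-like (log2 fold change 0.86 ± 0.16 (SE), adjusted p = 0.0342), cycling-like (0.90 ± 0.14 (SE), adjusted p = 0.0454) and interferon-stimulated-like clusters (1.15 ± 0.16 (SE), adjusted p = 1.29e-06), where edgeR called 0.73%, 0.313% and 2.54% of genes. It did not pass in the no-list clusters, where 0.232% of genes did (0.78 ± 0.17 (SE), adjusted p = 0.199) or in the memory precursor or naive-like ones, where 0.636% did (0.63 ± 0.16 (SE), adjusted p = 0.0770). With the chimera block it passed in all 5, with adjusted p from 5.59e-09 in the cycling-like to 0.00843 in the no-list clusters. The genotype effect on S100a4 was not shown to differ between classes: set against the no-list clusters, the largest difference was 0.34 ± 0.10 (SE) in the interferon-stimulated-like clusters (adjusted p = 0.204, edgeR). Of all genes, 0.235% were called for such a difference in these clusters and 0.0613% in the memory precursor or naive-like ones, with no member among them. In the terminal effector-like clusters leaving out WT2, KO1 or KO2 ended the call (adjusted p = 0.276, 0.269 and 0.163), and in the cycling-like ones leaving out WT2 did (adjusted p = 0.236).

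Counted per cell, with each cell thinned to 1000 UMIs, S100a4 was found in 54.6% (95% interval 53.1% to 56.0%) of the T cells of WT1 and 47.3% (95% interval 46.1% to 48.4%) of WT2. The shares were 70.1% (95% interval 68.8% to 71.4%) in KO1 and 70.2% (95% interval 69.0% to 71.3%) in KO2, so that both KO libraries were higher. Without thinning, the shares were 86.9%, 70.5%, 94.4% and 91.8%. In the B cell-like clusters, a measure of the free RNA that droplets take up, the thinned shares were 12.9%, 11.6%, 14.9% and 17.5%, at medians of 3598, 2026, 2901 and 2630.5 UMIs beside 3558, 1999, 3612 and 2929 in the T cells. The B cell-like class of WT1 holds, beside a B cell cluster of 105 cells, a cluster of 50 cells led by Jchain, and such clusters of the other libraries were under 1% and left out. Without it the WT1 share was 6.67%, at a median of 2297 UMIs. The share of T cells with S100a4 was above this background in every library. Intervals are exact Clopper-Pearson intervals and cover counting error only.

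**Figure D2:**
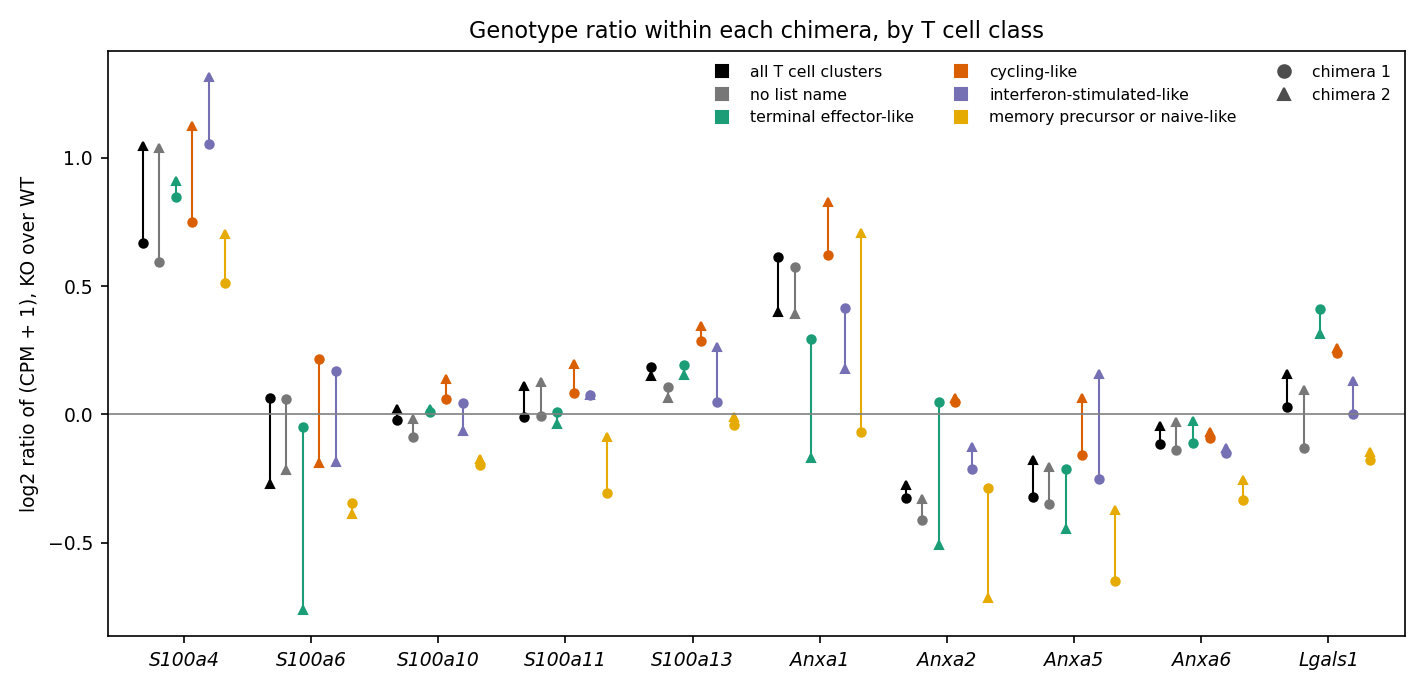
The log2 ratio of KO over WT (CPM + 1) of each gene within chimera 1 (circles) and chimera 2 (triangles), with the colour giving the class of T cell clusters and a line joining the 2 chimeras. S100a4 lies above 0 in both chimeras in every class, Lgals1 does so in the terminal effector-like and cycling-like clusters and, by less, in the interferon-stimulated-like ones (where the genotypes overlapped after TMM scaling), and S100a6 has opposite signs in the 2 chimeras in 3 of the 5 classes.

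Anxa1 was at 128, 145, 191 and 190.4 CPM in the no-list clusters of WT1, WT2, KO1 and KO2 and at 114, 109, 176 and 194 CPM in the cycling-like ones, higher in both KO libraries each time, as in the interferon-stimulated-like ones (122, 119, 163 and 135 CPM), where it was not called. In the terminal effector-like clusters it was at 169, 204, 208 and 181 CPM, and there the genotypes overlapped. With the block Anxa1 rose in the no-list (0.46 ± 0.078 (SE), adjusted p = 0.0295) and the cycling-like clusters (0.70 ± 0.10 (SE), adjusted p = 4.30e-05), and without it in neither (adjusted p = 0.199 and 0.0560, edgeR). The log2 fold change in the terminal effector-like clusters was 0.049 ± 0.14 (SE). The genotype effect there set against that in the no-list clusters differed by -0.42 ± 0.11 (SE) on the log2 scale (adjusted p = 0.0427, edgeR with library as a term), a difference of genotype effects that was called for 0.848% of 9788 genes. Leaving out WT1, WT2 or KO2 ended this call (adjusted p = 0.0972, 0.445 and 0.291).

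Outside the T cell clusters, cells with neutrophil genes differed in number between the WT and KO libraries, and classes there differ in make-up between libraries. Whether these cells came from the donor marrow or from the sublethally irradiated hosts was not tested, so their Bcl3 genotype is not known. In the myeloid-like clusters Anxa1 was at 121 (WT1), 193 (WT2), 625 (KO1) and 797 (KO2) CPM and S100a11 at 803 (WT1), 679.7 (WT2), 1841 (KO1) and 1635 (KO2) CPM. These sums follow the 1% limit on clusters. A myeloid-like cluster led by S100a8 and S100a9 held 112 cells of KO1 and 102 of KO2, while in WT1 and WT2 the corresponding clusters, of 42 and 32 cells, were under 1% of the library and left out of the classes. In those clusters alone Anxa1 was at 2384 (WT1), 1998 (WT2), 1815 (KO1) and 3192 (KO2) CPM and S100a11 at 5893, 4617, 5203 and 5617 CPM, and the genotypes overlapped for both. Over all cells S100a8, a neutrophil gene, was at 747 (WT1), 512 (WT2), 1328 (KO1) and 1455 (KO2) CPM. In the T cell clusters Anxa1 had a log2 fold change of 0.50 with the block, beside 0.60 over all cells. S100a8 was at 243, 101, 284 and 179 CPM there, higher in the KO library of each chimera, although WT1 lay above KO2 and the genotypes overlapped.

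Anxa2 was at 545, 510.5, 409 and 406 CPM in the no-list clusters, lower in both KO libraries, and with the block it fell by 0.39 on the log2 scale (SE 0.063, adjusted p = 0.0241, edgeR). Without the block the adjusted p was 0.283. The no-list class of KO1 includes a cluster of 805 cells with memory precursor markers among its leading genes. In that cluster Anxa2 was at 224 CPM, beside 545 and 342 CPM in the other no-list clusters of KO1. In the cycling-like clusters it was at 849, 820.4, 879 and 858 CPM, where the KO libraries were not lower. The genotype effect in the cycling-like clusters lay above that in the no-list clusters by 0.40 ± 0.087 (SE, adjusted p = 0.0265, edgeR), a difference called for 0.133% of genes. Leaving out KO1 or KO2 ended it (adjusted p = 0.433 and 0.411). Anxa2 was also lower in both KO libraries in the interferon-stimulated-like (378, 349.9, 326 and 320.1 CPM) and the memory precursor or naive-like clusters (402, 509, 329 and 309.6 CPM), and was called in neither. Anxa5 was lower in both KO libraries in the no-list (181, 176, 142 and 152 CPM) and the terminal effector-like clusters (135, 139, 116 and 102 CPM) and in the memory precursor or naive-like ones (154, 163, 97.9 and 126 CPM, from 44 UMIs in KO1), and passed in none of them, with or without the block.

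In the terminal effector-like clusters Lgals1 was at 5003, 5143, 6659 and 6394 CPM in WT1, WT2, KO1 and KO2, where both KO libraries were higher. With the block the log2 fold change was 0.35 ± 0.082 (SE) (adjusted p = 0.0157, edgeR, and 0.521 without it). In the no-list clusters the values were 5305, 4752, 4846 and 5079 CPM and the genotypes overlapped, as they did after TMM scaling in the interferon-stimulated-like ones. In the cycling-like clusters both KO libraries were higher too, at 6862, 6567, 8106 and 7849.7 CPM, and in the memory precursor or naive-like ones both were lower, at 2933, 3068, 2593 and 2774 CPM, and neither was called with the block (adjusted p = 0.111 and 0.538, edgeR). The genotype effect was higher in the terminal effector-like than in the no-list clusters by 0.39 ± 0.066 (SE, adjusted p = 0.000284, edgeR), and leaving out KO1 ended this call (adjusted p = 0.122). The terminal effector-like class is 1 cluster in WT1, WT2 and KO2 and 2 clusters in KO1. Of these KO1 clusters, the one of 609 cells held 5561 CPM of Lgals1 and the one of 551 cells 7539 CPM.

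Of the remaining S100 genes, S100a6 in the terminal effector-like clusters was at 3659.7, 4638, 3539 and 2735 CPM, with WT2 far above the others, and it was called with the block (-0.42 ± 0.12 (SE), adjusted p = 0.0469) and not without it (adjusted p = 0.476, edgeR). It was also called lower with the block in the memory precursor or naive-like clusters (-0.35 ± 0.074 (SE), adjusted p = 0.0302), at 3325, 2593, 2616 and 1978 CPM, where the genotypes overlapped. S100a13 rose in the cycling-like clusters with the block, at 458, 424, 559 and 538 CPM (0.29 ± 0.075 (SE), adjusted p = 0.0230, and 0.539 without it, edgeR). S100a10, S100a11, Anxa5 and Anxa6 were called in none of the 5 classes by either fit. With the block edgeR called 2.2% of genes in the no-list clusters, 4.17% in the terminal effector-like, 4.02% in the cycling-like, 1.97% in the interferon-stimulated-like and 1.2% in the memory precursor or naive-like ones, and 3, 3, 3, 1 and 2 of the 10 members.

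The second comparison was across T cell states. Classes come from clustering of the same cells, so these values are descriptions with no test, and the cells of a class share their library. In the memory precursor or naive-like clusters, named from genes such as Tcf7, Ccr7, Id3 and Il7r, 8 of the 10 members had their lowest level of the 5 classes in all 4 libraries. These were the 5 S100 genes, Anxa1, Anxa6 and Lgals1. The exceptions were Anxa2 and Anxa5. As log2 ratios of CPM + 1 to the no-list clusters, Anxa1 was at -2.15, -2.05, -2.79 and -1.73 in WT1, WT2, KO1 and KO2 (-2.18 ± 0.44, SD over 4 libraries), from 34, 34, 12 and 36 UMIs. S100a4 was at -1.07, -0.64, -1.15 and -0.97 and Lgals1 at -0.86, -0.63, -0.90 and -0.87.

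The other members of the group lay closer to the no-list clusters. The mean log2 ratio was -0.80 ± 0.19 (SD, n = 4 libraries) for S100a6, -0.72 ± 0.083 for S100a10, -0.68 ± 0.068 for S100a13, -0.53 ± 0.17 for S100a11 and -0.40 ± 0.16 for Anxa6. Anxa1 therefore stood apart by its size, since its ratio in every library was lower than that of each other member in that library. Thinned to 1000 UMIs, Anxa1 was found in 2.97% (95% interval 1.43% to 5.39%), 3.42% (95% interval 1.93% to 5.59%) and 7.0% (95% interval 3.88% to 11.5%) of these cells in WT1, WT2 and KO2. In KO1 it was found in 0 of 121, with an exact 95% interval up to 3.00%. That interval covers detection at the thinned depth and does not limit the share of cells that express Anxa1. The shares in the B cell-like clusters were 4.52% (4.76% without the Jchain-led cluster), 3.57%, 5.22% and 3.17%, so that Anxa1 in the memory precursor or naive-like cells of WT1, WT2 and KO1 was at or below that background in share. In KO2 it was above it, with intervals that overlapped (0.872% to 7.93% in the B cell-like clusters). Without thinning the shares of cells with Anxa1 in WT1, WT2, KO1 and KO2 were 8.01%, 6.15%, 6.56% and 13.4% in the memory precursor or naive-like cells and 13.5%, 8.33%, 12.7% and 11.1% in the B cell-like ones. Median depths were 3124, 2041, 3626 and 2994 UMIs in these cells and 3598, 2026, 2901 and 2630.5 in the B cell-like ones.

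Markers of another T cell type moved with this class. The 5 CD4 T cell genes summed to 74.2, 75.5, 93.5 and 115 CPM in the memory precursor or naive-like clusters of WT1, WT2, KO1 and KO2, led by Izumo1r, beside 10.2, 9.20, 6.91 and 9.36 CPM in all T cell clusters, and Cd4 was among the leading genes of the KO1 cluster. Cd8b1 was at 1658, 1591, 1589 and 1879 CPM there. The part of such cells in the low levels was not tested.

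**Figure D3:**
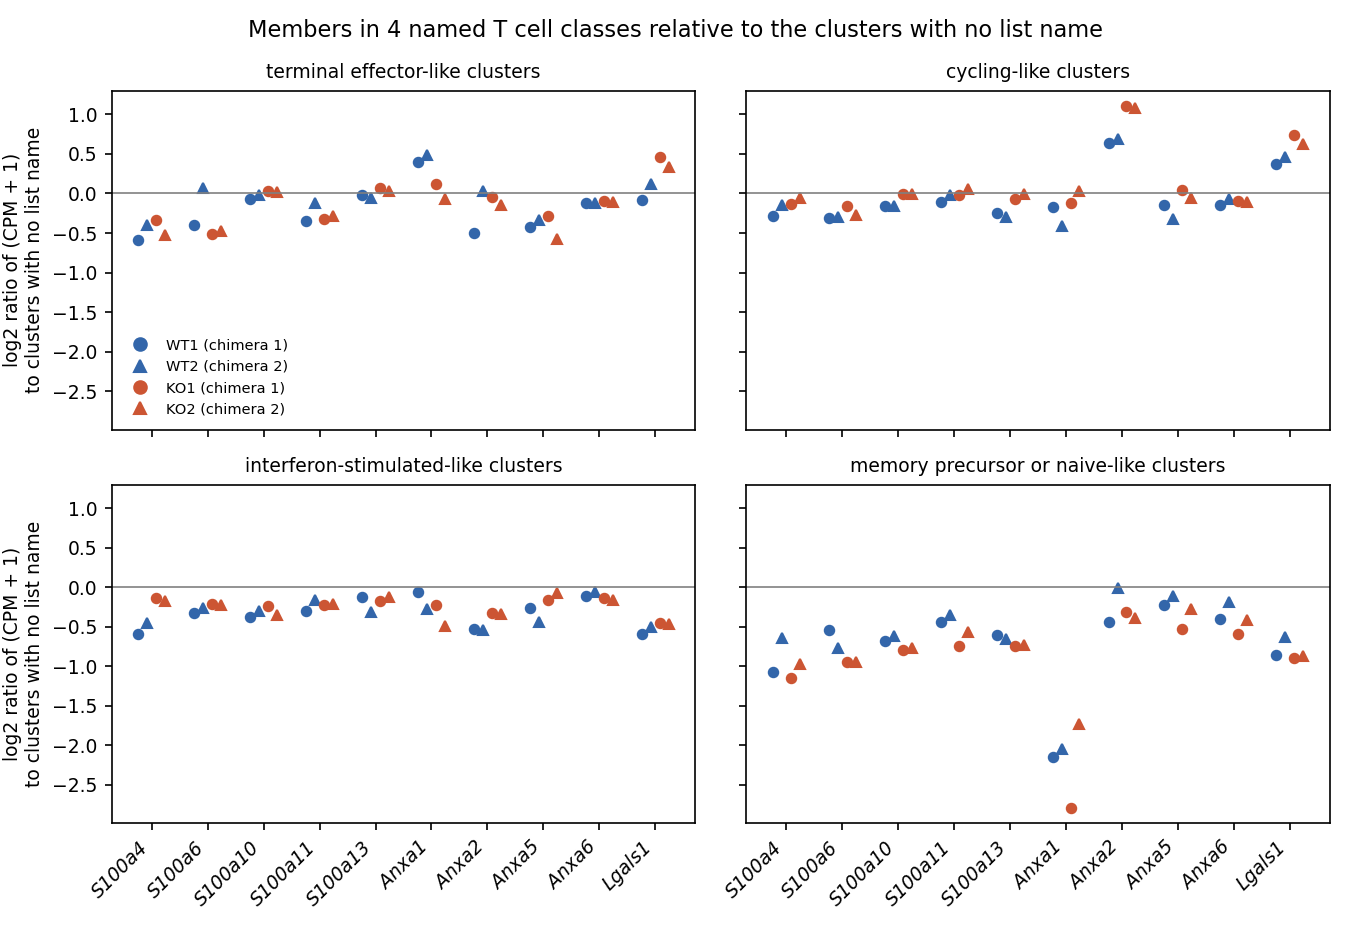
Level of each gene in 4 named classes relative to the no-list clusters of the same library, as the log2 ratio of CPM + 1, with 1 symbol per library (WT blue, KO orange, circles chimera 1, triangles chimera 2). In the memory precursor or naive-like clusters Anxa1 lies lowest, between -2.79 and -1.73, and in the cycling-like clusters Anxa2 and Lgals1 lie above 0 in every library.

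Cycling-like clusters, named from genes such as Mki67, Ccnb2 and Mcm5, held the highest level of Anxa2 and of Lgals1 of the 5 classes in all 4 libraries. The log2 ratio to the no-list clusters was 0.64, 0.68, 1.10 and 1.08 for Anxa2 and 0.37, 0.47, 0.74 and 0.63 for Lgals1 in WT1, WT2, KO1 and KO2. As class sums the other 8 members differed from the no-list clusters by less, with mean log2 ratios from -0.26 (S100a6) to -0.019 (S100a11). These sums pool unlike clusters. In the cycling-like cluster led by Ccnb2, S100a11 was at 1111, 901, 1329 and 1011 CPM in WT1, WT2, KO1 and KO2. Each value was above every no-list cluster of its library. In the other cycling-like clusters S100a11 was at 668 to 885 CPM. Summed over the class, S100a10, which pairs with annexin A2 as a protein, did not share its pattern, at -0.15, -0.16, -0.0075 and -0.0036. By cluster, S100a10 was highest in the Ccnb2-led one, at 3118, 2965, 3524 and 3179 CPM in WT1, WT2, KO1 and KO2. Anxa2 was highest there too, at 973, 976, 1172 and 1040 CPM. In the other cycling-like clusters S100a10 was at 2072 to 2517 CPM.

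In the terminal effector-like clusters, named from Zeb2, Cx3cr1, Gzma, Klrg1 and S1pr5, S100a4 was lower than in the no-list clusters in all 4 libraries (-0.59, -0.40, -0.34 and -0.53), as were S100a11, Anxa5 and Anxa6. Anxa1 went the other way in WT1, WT2 and KO1 (0.40, 0.49, 0.12 and -0.074) and had its highest level of the 5 classes there in those 3 libraries. S100a10 (-0.0064 ± 0.044, SD) and S100a13 (0.0061 ± 0.055) were level with the no-list clusters. Interferon-stimulated-like clusters were lower than the no-list clusters for all 10 members in all 4 libraries, with mean log2 ratios from -0.50 ± 0.060 (SD, Lgals1) to -0.12 ± 0.042 (Anxa6), and Anxa2 had its lowest level there in 3 of 4. No-list clusters held the highest level of S100a4 and of Anxa6 in all 4 libraries.

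The order of classes for the other members was less fixed. Levels of S100a6 were highest in the no-list clusters in WT1, KO1 and KO2, and in the terminal effector-like ones in WT2, where it stood at 4638 CPM. Anxa5 was lowest in the terminal effector-like clusters of 2 libraries, and its neighbouring classes overlapped over the libraries. For Lgals1 the order from cycling-like through interferon-stimulated-like to memory precursor or naive-like held in every library, at means of 7346 ± 747, 3523 ± 132 and 2842 ± 205 CPM (SD, n = 4). The terminal effector-like level was above the no-list one in WT2 and both KO libraries and below it in WT1, at the values given above by library.

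Free RNA sets how low a level can be read. Barcodes with 1 to 100 UMIs were summed as empty droplets, and the level in the B cell-like clusters was divided by that in the empty droplets of the same library. The median ratio over the libraries was 0.245 for S100a4, 0.288 for Lgals1, 0.306 for Anxa2 and 0.327 for Anxa1, within or near the 0.173 to 0.323 of the T cell genes Cd8a, Gzmb, Nkg7, Ccl5 and Cd8b1. The other 6 members lay between 0.369 (S100a10) and 0.546 (S100a11). Without the Jchain-led cluster of WT1 the median was 0.229 for S100a4, 0.270 for Lgals1, 0.270 for Anxa2 and 0.364 for Anxa1, and Cd8b1, the highest T cell gene, was at 0.314. In the memory precursor or naive-like clusters the ratio was 0.281 for Anxa1 and 0.220 for Gzmb, and from 0.586 (Lgals1) to 0.891 (S100a11) for the other 9 members. Library by library, those 9 were above the highest T cell gene of the B cell-like clusters, Cd8b1, in all 4. Anxa1 was at 0.259, 0.334, 0.158 and 0.303 in WT1, WT2, KO1 and KO2 beside 0.402, 0.325, 0.321 and 0.226 for Cd8b1, lower in WT1 and KO1 and higher in WT2 and KO2. Without the Jchain-led cluster Cd8b1 was at 0.307 in WT1.

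The no-list clusters were not uniform. Within a library the highest cluster exceeded the lowest by 1.76-fold in WT1, 1.68-fold in WT2, 2.43-fold in KO1 and 1.84-fold in KO2 for Anxa2, the widest range of the members in all 4. For Lgals1 the ratio was 1.59, 1.24, 1.81 and 1.5. In WT1 and KO1 a cluster led by Il7r, with Bcl2 and Cd7 among its leading genes, held the lowest level of 9 of the 10 members in WT1 and of all 10 in KO1. The KO1 cluster also had the memory precursor markers Tcf7 and Slamf6 among its leading genes, and with markers at 1.5-fold it joined the memory precursor or naive-like class, which then held 927 cells of KO1 in place of 122. In KO1 that cluster had 224 CPM of Anxa2, against 545 CPM in the cluster whose leading genes included Adam8, Serpinb6b and Tnfrsf9. For S100a4 the lowest such cluster of the KO libraries, at 1188 CPM in KO1, stood above the highest of the WT libraries, at 1094 CPM in WT1.

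**Figure D4:**
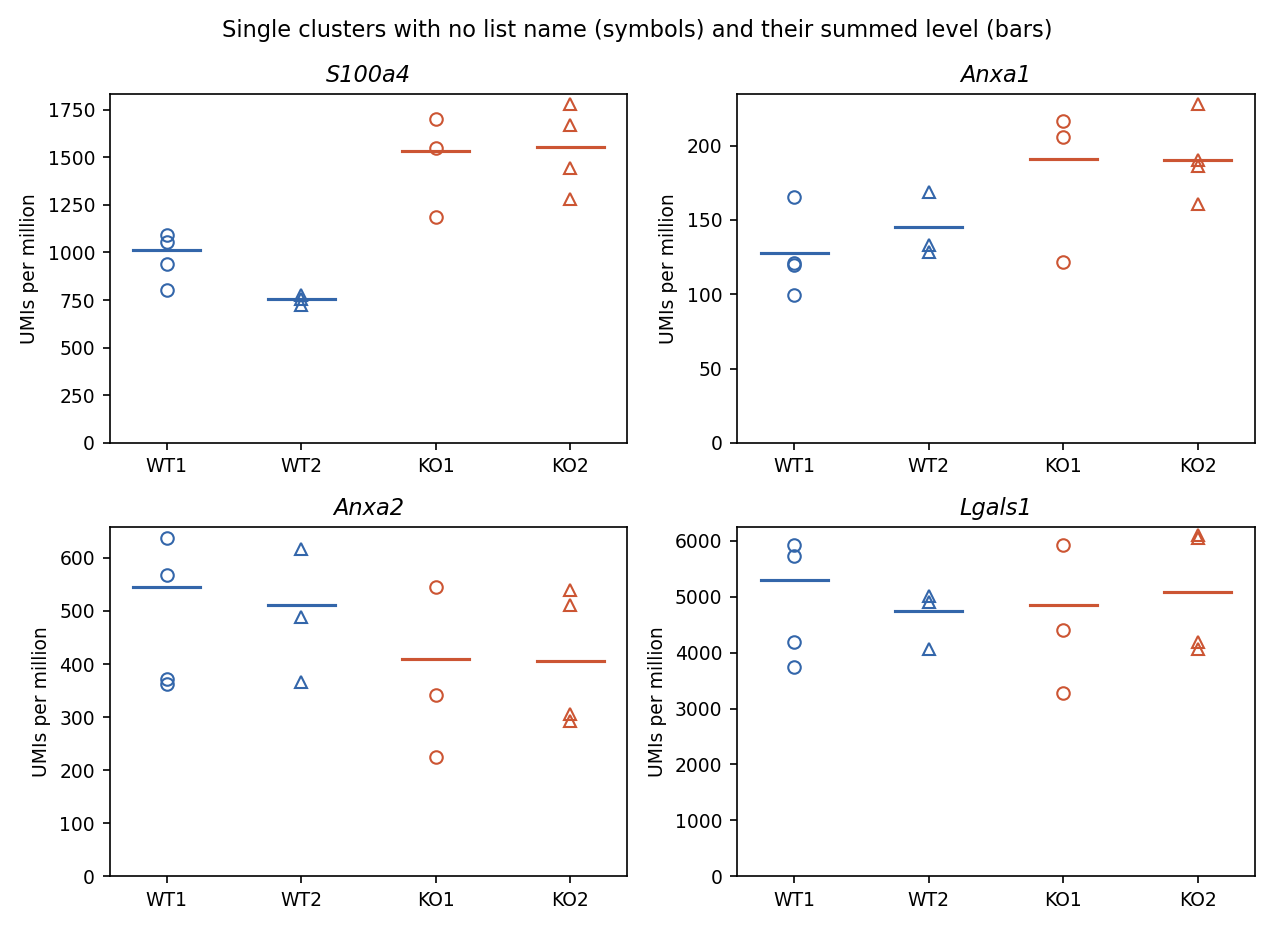
Level of S100a4, Anxa1, Anxa2 and Lgals1 in CPM in each single no-list cluster (open symbols) and in their sum (bar) for every library, WT in blue and KO in orange. For S100a4 every KO cluster lies above every WT cluster, while for Anxa2 the highest cluster of a library exceeds the lowest by 1.68- to 2.43-fold.

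Genes with a like pattern were sought over the 20 sums of library and class, on log2(CPM + 1) centred within each library, among 2626 genes of at least 50 CPM. The sums share libraries and depth, and the correlations are descriptions. Nearest to Lgals1 was Vim (Pearson 0.977), which encodes the intermediate filament protein vimentin, followed by Gnai2 (0.952) and Gsr (0.952). Nearest to Anxa2 were Ywhah (0.966), U2af1 (0.958) and Hprt (0.952), and nearest to Anxa6 were Arhgdib (0.949), Tram1 (0.925) and Hsd11b1 (0.922). S100a6 was nearest to Ech1 (0.903), AA467197 (0.880) and Dnajc15 (0.880).

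Among the members themselves the closest pairs over the same sums were S100a10 with S100a13 (0.958), S100a4 with S100a11 (0.951) and S100a13 with Anxa1 (0.948). The neighbouring genes S100a4 and S100a6 reached 0.870 and S100a11 and S100a10 0.826. The protein partners S100a10 and Anxa2 reached 0.444, and S100a11 and Anxa1 0.756. The lowest values were those of Anxa5, with 0.229 against Anxa1 and 0.257 against Lgals1.

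The rest of the families and their partners were read from lists of genes over all cells. Without the block edgeR called none of them, although 7 of the 50 tested had an unadjusted p under 0.05, a share of 14% beside 15.6% of all genes. Of 13 other genes with S100 symbols, among them S100pbp, which encodes an S100P-binding protein, 7 were tested. The block called 9.65% of all genes over all cells (4.81% higher and 4.84% lower in KO). Of these 7 genes 3 rose with the block and none fell. These were S100a8 (1.15 ± 0.11 (SE, adjusted p = 2.37e-05)) and S100a9 (1.42 ± 0.13 (SE, adjusted p = 1.72e-05)), which together form calprotectin in neutrophils, and S100b (2.77 ± 0.77 (SE, adjusted p = 0.0361)), a gene at under 1 CPM in every library. The same 3 were called with the block in the T cell clusters, beside 10.8% of all genes (5.31% higher in KO). There the log2 fold change was 0.51 ± 0.092 (SE) for S100a8 and 0.81 ± 0.15 for S100a9, although WT1 lay above KO2 in CPM for both. The part of the clusters led by S100a8 and S100a9 was not tested. S100a1, the next most abundant, was at 12.6, 15.9, 14.9 and 17.9 CPM in WT1, WT2, KO1 and KO2. Of 8 other annexin genes 5 were tested and none was called. Anxa11, Anxa7 and Anxa4, the most abundant of them, had means of 102, 95.7 and 24.4 CPM.

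Of 10 other genes with Lgals symbols 7 were tested, beside a blocked call for 9.65% of all genes over all cells. With the block Lgals3bp, which encodes a galectin-3-binding glycoprotein and not a galectin, fell (-0.32 ± 0.067 (SE, adjusted p = 0.00848), edgeR). The other 6 were not called. Lgals3 was at 1146, 1295, 1057 and 1072 CPM and Lgals9 at 134, 159, 131 and 168 CPM in WT1, WT2, KO1 and KO2. Of 10 partners and receptors 9 were tested. Plaur, the urokinase receptor, rose with the block (2.65 ± 0.40 (SE, adjusted p = 0.000866)) from 0.396, 0.416, 1.97 and 3.34 CPM, and was not tested in the T cell clusters, where too few UMIs were found. The glycoprotein genes that galectin-1 binds were not called, Ptprc (CD45) at 523, 669.9, 482 and 599.6 CPM and Spn (CD43) at 319, 304, 359 and 333 CPM, and Ahnak, a scaffold for annexin A2 and S100A10, had a mean of 239 CPM.

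In the list of 22 actin cytoskeleton and membrane genes, all tested, 1 rose and 3 fell with the block. Tpm3, a tropomyosin, was at 372, 137, 410.1 and 327 CPM in WT1, WT2, KO1 and KO2 and was called higher (0.67 ± 0.16 (SE, adjusted p = 0.0181), edgeR), although WT1 lay above KO2. Tmsb10, a thymosin that binds actin monomers, was at 8013, 6469.9, 6314 and 4631 CPM and fell (-0.43 ± 0.087 (SE, adjusted p = 0.00706)). Capg, which caps actin filaments, was at 111, 139.9, 93.5 and 97.4 CPM, and Crip1, a small LIM protein gene, at 5054, 4957, 4258 and 3898 CPM, and both fell (-0.40 ± 0.081 (SE, adjusted p = 0.00675) and -0.31 ± 0.083 (SE, adjusted p = 0.0300)). The most abundant of the list, Tmsb4x and Actb, had means of 22248 and 7733 CPM. The block called 4.81% of all genes higher and 4.84% lower, and the median log2 fold change of the 22 genes was 0.024, beside 0.0073 over all genes.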

How the data were processed

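For 4 libraries of the 3′ v2 chemistry the authors deposited unfiltered count matrices of UMIs (737280 barcodes each). Per the labels, the submitters' processing notes name Cell Ranger 2.2.0, bcl2fastq 2.17 and mm10. Total UMIs were 21193300 (WT1), 20358780 (WT2), 22922219 (KO1) and 22672343 (KO2). Barcodes with 500 or more genes and 10% or less mitochondrial UMIs were kept. No doublet caller was run. Pairs of libraries shared 37 to 63 cell barcodes.

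Clusters were made per library with Seurat 5.3.0. A class name needed at least 3 markers at 2-fold in 10% of cells, with at least 1 among the 10 leading genes, and clusters of less than 1% of their library got no class. UMIs were summed per library and tested with edgeR 4.0.16 (quasi-likelihood, TMM, filterByExpr, Benjamini-Hochberg at 0.05) in R 4.3.3, without a block. DESeq2 1.42.0 and a chimera block were alternatives. WT and KO libraries of a number come from 1 chimera, and their deviations correlated (Pearson 0.293 over 6862 genes). With n = 2 per genotype, p-values measure the spread between these libraries. They rest on variance that edgeR pools across genes, most of all with the block. The fit over all cells without a block, tested on simulated data of 11444 genes, recovered 84% of genes changed 2-fold, with 12 false calls. With the block it recovered 82%, with 11 false calls. In these libraries the block raised the genes called from 42 to 1116, so the simulated share need not hold for them.

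The 10 members and all lists were chosen with earlier results of these data known. Further genes named were the called ones (at most 4) and the 3 most abundant of each list, and 3 genes of the most like pattern. The neighbours of S100a4 were chosen by position. Likeness left out T cell receptor and immunoglobulin segments. Comparison of genotype effects between classes was added after the data were seen. No genome was used for sequence, and 27722 of 27998 gene IDs matched the annotation.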

Additional observations from a re-analysis of the deposited data

Results flagged for a closer look

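In 3 cases the genotype effect on a member differed between classes of T cell clusters, by a test of the difference itself (edgeR, library as a term, adjusted over 9788 genes). For Anxa1 the effect in the terminal effector-like clusters differed from that in the no-list clusters by -0.42 on the log2 scale (adjusted p = 0.0427, and 0.00821 with chimera by class as a block). For Lgals1 the corresponding difference was 0.39 (adjusted p = 0.000284, and 3.21e-05 with the block). For Anxa2 the effect in the cycling-like clusters differed from that in the no-list clusters by 0.40 (adjusted p = 0.0265, and 0.000611 with the block). Leaving out 1 library ended each call, as given above for each gene. With groups of 2 libraries no library could be tested for standing apart from its group.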

How the results depend on the processing

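Of 340 member values recomputed, 285 kept their direction and side of the threshold, 26 passed it newly, 10 no longer passed and 19 changed sign. The block for the chimera, by which WT and KO libraries are paired, raised the genes called from 42 to 1116 over all cells and from 30 to 1204 in the T cell clusters, and to 227 (from 24) in the no-list, 354 (from 62) in the terminal effector-like, 372 (from 29) in the cycling-like and 79 (from 42) in the memory precursor or naive-like clusters. In the interferon-stimulated-like clusters it lowered the count from 179 to 139. DESeq2 called 202 over all cells and 170 in the T cell clusters. Over all cells, leaving out the myeloid-like and small clusters left 14. In the T cell clusters the count was 16 with upper-quartile factors, 10 with no filter on low counts, 17 at 5% mitochondrial UMIs and 18 without the memory precursor or naive-like clusters. Leaving out 1 library gave 40 to 228 genes over all cells, 36 to 181 in the T cell clusters, 30 to 111 in the no-list, 13 to 132 in the terminal effector-like, 53 to 198 in the cycling-like and 33 to 75 in the memory precursor or naive-like clusters. In such fits the lone library is assumed to vary like the other group. S100a4 was called without WT1 (log2 fold change 1.05, adjusted p = 0.0213 over all cells). Signs turned for small effects when 1 library was left out: S100a6 ranged from -0.38 to 0.14 over all cells and from -0.37 to 0.14 in the T cell clusters, S100a10 from -0.090 to 0.040 and from -0.066 to 0.041, S100a11 from -0.11 to 0.30 and from -0.15 to 0.24, and Lgals1 from -0.041 to 0.16 and from -0.015 to 0.17. Within classes Lgals1 ranged from -0.16 to 0.067 in the no-list, Anxa1 from -0.10 to 0.18 in the terminal effector-like and Anxa2 from -0.028 to 0.083 in the cycling-like clusters. S100a11 in the T cell clusters was at -0.011 with equal numbers of cells thinned to 1000 UMIs and at -0.031 without cells with UMIs of other cell types. The cause was not tested. The count of 8 members lowest in the memory precursor or naive-like clusters became 6 with 30 principal components and 7 with a marker fold of 1.5, where the class in KO1 held 927 cells in place of 122.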

Other observations

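Outside the T cell clusters the members had other levels. In the myeloid-like clusters Anxa5 was at 379, 392, 255 and 257 CPM and Anxa2 at 439, 512, 588 and 561 CPM in WT1, WT2, KO1 and KO2, and S100a6 at 2528, 2018, 3319 and 2299 CPM. In the B cell-like clusters, leaving out the Jchain-led cluster that only the WT1 class includes, Lgals1 was at 1333, 1222, 1479.6 and 1234 CPM and S100a10 at 976, 841, 949 and 828 CPM. With that cluster Lgals1 was at 2020.5 CPM in WT1. The myeloid-like class includes the clusters led by S100a9 in KO1 and KO2 and not in WT1 and WT2, and no test was made between genotypes there.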
